A study of Homo sapiens with 7 samples.

Results

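Replication-dependent histone genes encode the bulk histones that package newly made DNA. They were taken here as the genes whose probe accession maps to a symbol H1-1 to H1-5, or to one that starts with H2AC, H2BC, H3C or H4C followed by a number, with pseudogenes left out. Of 68 such genes in the reference table, 64 had a probe on the array (5 of the H1, 15 of the H2A, 18 of the H2B, 12 of the H3 and 14 of the H4 family), out of 19062 named genes in all. The genes H2AC11, H2AC18, H3C14 and H4C14 had none. Of the 64 genes, 53 lie on chromosome 6, 10 on chromosome 1 and 1, H4C16, on chromosome 12.

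The RNA came from NCI-H520, an established squamous lung cancer line of human origin, and was hybridised to 7 single-colour Agilent arrays with 1 array per group. All cells received 6 µg of a pLKO.1 plasmid, puromycin at 6 µg/mL from 12 h, and were harvested at 72 h. The control groups received the empty vector or a non-target shRNA. The other plasmids carried an shRNA to silence 1 deadenylase each, namely PARN, CNOT6, CNOT6L, CNOT7 or NOC, the last being nocturnin with the gene symbol NOCT. The labels give the CNOT6L shRNA the same target accession as the NOC shRNA, so the sequence behind it is uncertain. No group was replicated, so a difference between single arrays has no error of its own, and the spread between the 2 control arrays is given in its place. Untransfected cells were not analysed here.

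As background, a deadenylase shortens the poly(A) tail of mRNA. Replication-dependent histone mRNAs are the exception among mRNAs, because they usually end in a conserved stem-loop and carry no poly(A) tail. The stem-loop is bound by SLBP, which directs 3′ end processing, translation and decay, and the mRNAs build up in S phase and are degraded when DNA synthesis stops. Some histone genes also make polyadenylated transcripts, mostly in cells that leave the cycle. The labelling kit named in the labels starts cDNA synthesis from an oligo(dT) primer. How much of each histone signal came from polyadenylated RNA, from internal priming or from near-identical sister genes was not tested.

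Levels are processed signals on the log2 scale, from which each array's own 75th percentile was subtracted, so a level of 0 is the brightness of the array's 75th percentile spot, and a difference of 1 is 2-fold. That percentile was lowest on the CNOT6 shRNA array, at 1366 signal units, and highest on the CNOT7 shRNA array, at 3986. Slide row 1 held both controls with the PARN and CNOT6 shRNA arrays, whereas slide row 2 held the remaining 3 (CNOT6L, CNOT7, NOC) and no control. For the shRNAs of row 2, slide row and comparison with the controls cannot be told apart. Image extraction of the NOC shRNA array took place on a separate day. Each targeted mRNA was lowest on its own array, at 45.8% of the control mean for PARN, 89.6% for CNOT6, 63.0% for CNOT6L, 54.2% for CNOT7 and 74.3% for NOCT. From the empty-vector and non-target arrays CNOT6 differed by -0.21 and -0.11, and NOCT by -0.64 and -0.22. The size of these 2 reductions thus depends on the control. Below, silencing names the shRNA received and not a measured degree of loss. The epithelial markers EPCAM, CDH1, KRT8 and KRT18 were above background on all 7 arrays. Of 8 squamous markers, 4 to 7 were above background per array, SOX2 at levels of 4.58 to 5.45 but TP63 on 2 arrays, KRT14 on 1 and DSG3 on none, so the squamous label rests on few of them. The 6 markers of other cells (NKX2-1, NAPSA, COL1A1, COL1A2, PTPRC, PECAM1) were all above background, with a log2 summed level of -0.02 to 0.22 on the 7 arrays.

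Of the 64 histone genes, 62 were above background on all 7 arrays. H4C7 was so on 2 arrays, and H2BC1, a testis-specific H2B gene, on none, which left 63 genes to compare. The brightest probe stood for each gene. The 16 genes whose brightest probe had 2 spots showed a median SD between spots of 0.05 (112 pairs of spots, highest 0.33 for H1-1), which is the only repeat measurement in the series. Over the 7 arrays the range from lowest to highest level had a median of 0.64 for the histone genes, beside 0.66 for all 17834 genes tested. Of the 63 genes, 53 stayed within a range of 1, beside 74.9% of all genes tested. Among genes with a mean level above 0 the order was the other way, with a median range of 0.60 for 40 histone genes, 35 of them within 1, beside 0.47 and 94.4% for all such genes. Most histone genes thus varied by less than 2-fold over all arrays, and the results below concern shifts shared by many of them rather than large changes of a few.

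**Figure D1:**
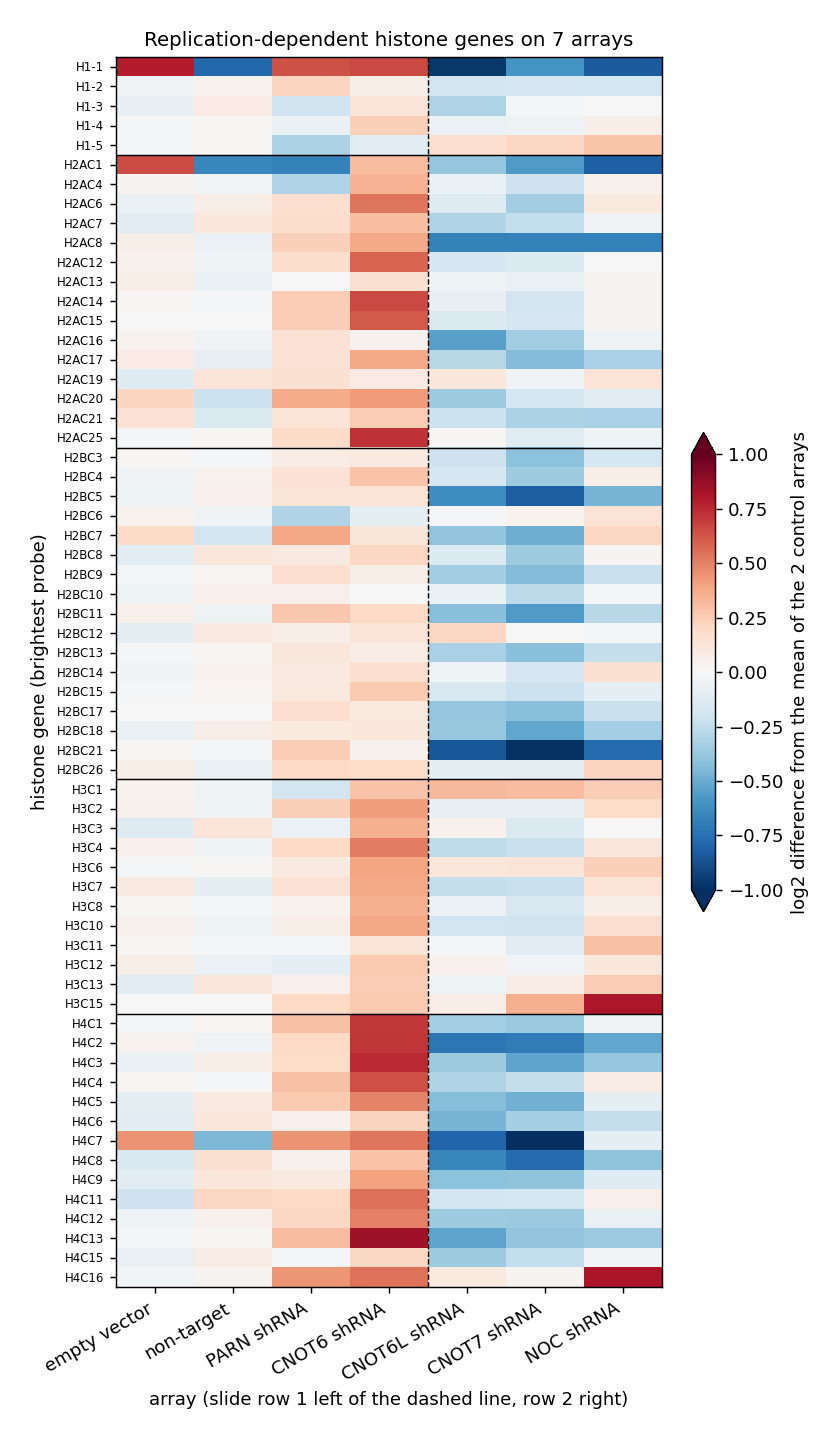
Log2 difference of each of the 63 histone genes (rows, grouped by family) from the mean of the 2 control arrays, on the 7 arrays (columns), with differences beyond 1 in either direction drawn in the end colour. The CNOT6 shRNA column is mostly red, with 56 genes above both controls, and the CNOT6L and CNOT7 shRNA columns are mostly blue, with 48 genes each below both.

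The control arrays came first, as the measure of spread with no deadenylase silenced. The median difference of the histone genes between them (empty vector minus non-target) was -0.02, and 60 of 63 genes differed by at most 0.5. H1-1, a linker histone gene, differed most, with levels of -4.34 on the empty-vector and -5.91 on the non-target array. H2AC1, a testis-specific H2A gene, followed with -5.09 and -6.39. These dim genes were the 2 members at least 2-fold higher on the empty-vector array, beside 10.9% of all genes tested, and none was 2-fold lower, beside 0.572%. H4C7, at -7.26 and -8.16, came next. In the other direction H4C11 was 0.42, H4C8 0.31 and H3C3 0.27 higher on the non-target than on the empty-vector array. At any size, the empty-vector array gave the higher value in 29 of the 63 genes and the lower in 34, beside 55.5% and 44.5% of all genes tested.

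Against both controls, none of the 63 histone genes was 2-fold higher or 2-fold lower upon silencing of any of the 5 deadenylases. The share of all genes tested that passed this rule was also small. It was 0.129% higher and 0.353% lower for PARN, 0.241% and 0.247% for CNOT6, 0.179% and 0.701% for CNOT6L, 0.185% and 0.824% for CNOT7, and 0.308% and 1.09% for NOC. A count of 0 among 63 genes is therefore near this background.

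Smaller shifts of the whole group were nevertheless seen, in opposite directions. The median difference from the control mean was 0.15 for PARN, 0.28 for CNOT6, -0.21 for CNOT6L, -0.24 for CNOT7 and -0.01 for NOC. Over all genes tested the same medians were -0.02, 0.04, 0.00, -0.03 and -0.03. For comparison, the histone medians of the control arrays themselves were -0.01 for the empty vector and 0.01 for the non-target array. The 5 shRNAs share these 2 control arrays, so their values are not independent of each other.

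**Figure D2:**
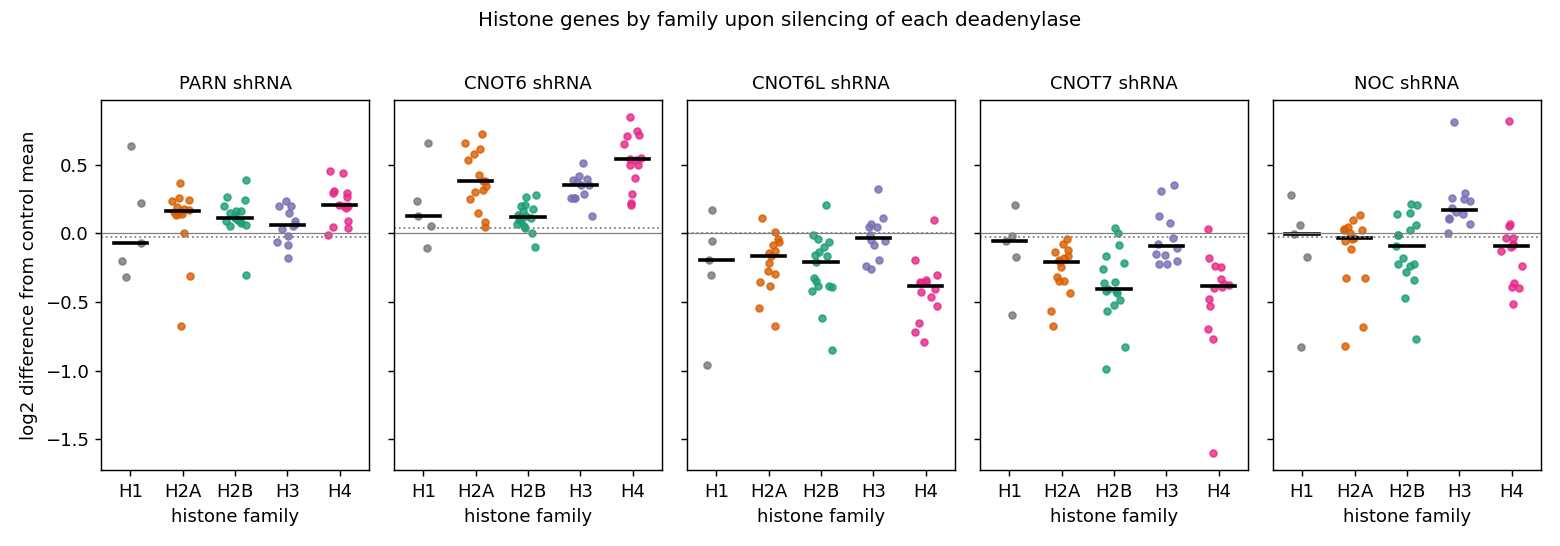
Log2 difference from the control mean of each histone gene (points) by family, 1 panel per shRNA, with black bars for the family median and a dotted line for the median of all genes tested. Upon CNOT6 silencing the H4 median was 0.54 and the H2B median 0.12, and upon CNOT7 silencing both were negative, at -0.38 and -0.41.

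CNOT6 silencing gave the most uniform histone shift. At any size, 56 of 63 genes were above both controls and 2 below both, beside 35.0% and 28.6% of all genes tested. By the brightest probe, all 14 H4 genes and all 12 H3 genes were above both controls, as were 13 of 15 H2A, 14 of 17 H2B and 3 of 5 H1 genes. A dimmer probe of H3C10 was below both controls, at -0.14 from their mean against 0.39 for the brightest. A dimmer probe each of H2BC18 (-0.14) and H2BC21 (-0.08) was also below the control mean, and the remaining dimmer probes were above it. The family medians were 0.54 for H4, 0.38 for H2A, 0.35 for H3, 0.13 for H1 and 0.12 for H2B. H4 and H3 form the tetramer at the core of the nucleosome, H2A and H2B the flanking dimers, and H1 binds the linker DNA. No test can be given, since each side of the comparison rests on single arrays. The same array had the lowest overall signal and the least reduced target of the 5, and the part of either in the histone shift was not tested.

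H4C13 stood highest among the H4 genes. It had levels of 4.40 and 4.43 on the empty-vector and non-target arrays and 5.26 upon CNOT6 silencing, 1.80-fold the control mean. It was 4.72 upon PARN, 3.88 upon CNOT6L, 4.02 upon CNOT7 and 4.05 upon NOC silencing. The CNOT6 shRNA array was thus highest of the 7, and the 3 arrays of slide row 2 were the lowest. A second, dimmer probe of H4C13 showed differences of 0.81 upon CNOT6 and -0.40, -0.50 and -0.05 upon CNOT6L, CNOT7 and NOC silencing. H4C3 had levels of 6.57 and 6.70 on the controls, 6.82 upon PARN, 7.38 upon CNOT6, 6.28 upon CNOT6L, 6.11 upon CNOT7 and 6.25 upon NOC silencing, again highest upon CNOT6 silencing and lowest on the 3 arrays of row 2. H4C1, with control levels of 0.30 and 0.34, reached 1.03 upon CNOT6 silencing. It was 0.61 upon PARN and -0.01, -0.05 and 0.29 on the 3 arrays of row 2. Its second probe differed by 0.07 upon CNOT6 silencing against 0.71 for the brightest one, so the 2 probes of H4C1 disagree in size. The 2 probes of H4C4, another gene of the family, differed from the controls by 0.65 and 0.82.

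Among H2A genes, H2AC25, an H2A gene of chromosome 1, was highest upon CNOT6 silencing. Its levels were -3.91 and -3.89 on the controls, -3.17 upon CNOT6, -3.70 upon PARN, -3.89 upon CNOT6L, -4.01 upon CNOT7 and -3.94 upon NOC silencing. The CNOT6 shRNA array was the highest and the PARN shRNA array the next. The brightest H2A gene, H2AC14, had control levels of 2.72 and 2.70 and was 3.37 upon CNOT6 silencing, where PARN gave 2.97 and the arrays of row 2 gave 2.63, 2.52 and 2.74. H2AC17 was 2.70 and 2.54 on the controls and 3.01 upon CNOT6 silencing. The 2 genes below both controls on this array were the linker gene H1-5, at -0.11 from the control mean, and H2BC6, at -0.10. Of the brightest H3 genes, H3C3 was 4.15 and 4.41 on the controls and 4.63 upon CNOT6 silencing, and H3C13 was 4.32, 4.55 and 4.69.

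Most H2A and H2B genes lie head to head and share the DNA between their starts. A search of adjacent starts among measured genes with a RefSeq promoter found 9 such pairs, 194 to 246 bases apart. Both genes were above background in 8 of them. The search missed the neighbours H2AC7 with H2BC7 and H2AC12 with H2BC12, so the counts below are not of every measured pair. Upon CNOT6 silencing H2AC7 differed from the control mean by 0.30 and H2BC7 by 0.12, and H2AC12 by 0.58 and H2BC12 by 0.13. Upon CNOT6 silencing the H2A gene exceeded its H2B partner in the difference from the control mean in 8 of 8 pairs, by 0.08 to 0.55 (median 0.32). H2AC25 differed by 0.73 where its partner H2BC26 differed by 0.18, and H2AC14 by 0.66 where H2BC14 differed by 0.16. H2AC20 differed by 0.43 where H2BC21 differed by 0.04. On the other arrays the sign was mixed, the H2A gene being the higher in 5 of 8 pairs for PARN, 6 for CNOT6L, 4 for CNOT7 and 4 for NOC. Over all genes of the families, the CNOT6 medians were 0.38 for H2A and 0.12 for H2B, and the highest H2B difference was 0.28. The count of pairs upon CNOT6 silencing thus goes with the family difference, and unpaired genes were not set beside it. The pairs were examined after the values had been seen, and no test was made.

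**Figure D3:**
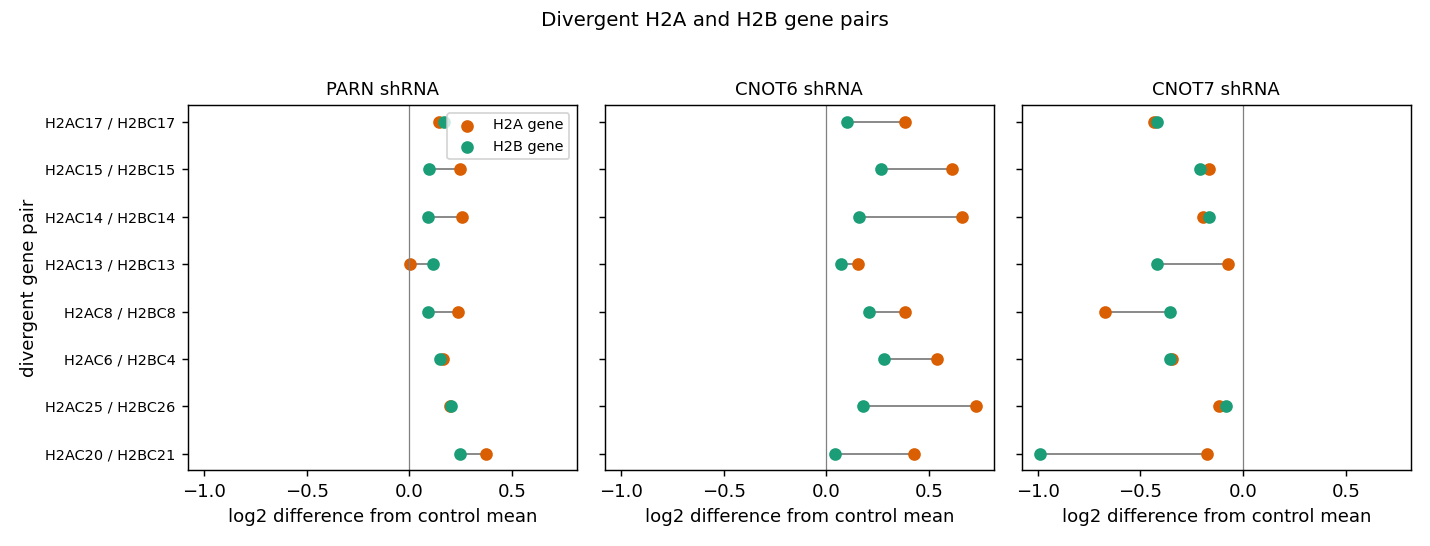
Log2 difference from the control mean of the H2A gene (orange) and the H2B gene (green) of 8 head-to-head pairs, upon PARN, CNOT6 and CNOT7 silencing, with a grey line joining the genes of a pair. Upon CNOT6 silencing the orange point lies to the right in all 8 pairs, and in the other panels it does so in 5 and in 4.

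Promoters of some genes that carried these shifts are shown with known histone promoter motifs marked, and a single promoter need not be typical of its family. RefSeq promoters of 300 bases (250 before and 50 after the start, GRCh38.p14) were matched for 59 of the 64 genes, the others being H2AC12, H3C11, H3C12, H4C1 and H4C3. Below are the 120 bases before the start of 3 H4 genes that were high upon CNOT6 silencing or low in row 2, and of 3 H2B genes that were low in row 2. Capitals mark GGTCCG (the core of the H4 subtype element), ATTTGCAT (the octamer), CCAAT and TATAAA, each searched on both strands.
H4C13: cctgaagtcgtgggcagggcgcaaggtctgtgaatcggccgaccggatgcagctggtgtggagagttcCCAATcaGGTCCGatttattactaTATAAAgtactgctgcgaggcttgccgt
H4C2: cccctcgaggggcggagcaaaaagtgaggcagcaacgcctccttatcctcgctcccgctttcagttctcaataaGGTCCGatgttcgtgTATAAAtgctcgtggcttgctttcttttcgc
H4C8: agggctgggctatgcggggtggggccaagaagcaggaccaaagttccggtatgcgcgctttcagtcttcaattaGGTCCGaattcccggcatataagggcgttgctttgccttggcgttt
H2BC21: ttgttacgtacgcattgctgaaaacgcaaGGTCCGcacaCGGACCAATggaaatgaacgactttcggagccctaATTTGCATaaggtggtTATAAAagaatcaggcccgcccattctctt
H2BC5: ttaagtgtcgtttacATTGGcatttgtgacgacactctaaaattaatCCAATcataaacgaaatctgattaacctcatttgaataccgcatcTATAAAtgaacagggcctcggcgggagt
H2BC18: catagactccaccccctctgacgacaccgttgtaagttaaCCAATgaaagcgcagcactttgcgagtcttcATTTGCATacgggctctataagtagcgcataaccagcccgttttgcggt
The stretches are chr6:27873535-27873654 on the minus strand for H4C13, chr6:26027284-26027403 on the minus strand for H4C2, chr6:26285535-26285654 on the minus strand for H4C8, chr1:149886683-149886802 on the minus strand for H2BC21, chr6:26158001-26158120 on the plus strand for H2BC5 and chr1:149812371-149812490 on the minus strand for H2BC18. In the H2BC21 stretch, the second H4-type element lies on the other strand and overlaps the CCAAT box. GGTCCG was in 11 of 12 H4 promoters, in 1 of 18 H2B promoters (that of H2BC21), and in 11.3% of all 35116 promoters of the same length. ATTTGCAT was in 14 of 18 H2B and 10 of 14 H2A promoters, and in 1.77% of all. The windows of head-to-head genes overlap, so the same octamer can be counted for both genes. CCAAT was in every H1, H2A, H2B and H3 promoter matched and in 3 of 12 H4 promoters, beside 34.6% of all. TATAAA was in 39 of 59 histone promoters, beside 11.5%. These matches describe the letters of the window and were not set against the expression values.

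PARN silencing gave a smaller upward shift, on an array of the same slide row as both controls. Of 63 genes, 42 were above both controls and 9 below both, beside 22.3% and 31.6% of all genes tested. The medians were 0.20 for H4, 0.16 for H2A, 0.11 for H2B, 0.06 for H3 and -0.07 for H1. By the smaller of the differences from both controls, H4C16, which lies apart from the clusters, was highest, at -3.63 against -4.10 and -4.05 on the controls. By that measure H4C13 and H4C4 came next, at 0.30 and 0.28. At the other end by the same measure, H1-5 was 0.06 where the controls were 0.36 and 0.39. H2AC4 was -0.80 against -0.47 and -0.52, and H2BC6 was -1.55 against -1.20 and -1.28. For scale, H4C11 differed by 0.42 between the control arrays.

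CNOT6L and CNOT7 silencing gave the opposite picture, with 48 of 63 genes below both controls on each array. The genes above both controls numbered 6 and 5. The background of genes below both controls was 32.5% for CNOT6L and 34.9% for CNOT7, and above both 31.5% and 29.7%. The H4 median was -0.38 on both arrays, and the H2B median was -0.21 and -0.41. H2A genes had medians of -0.17 and -0.21, whereas H3 genes had -0.03 and -0.09. NOC silencing, on the third array of row 2, had 25 genes above and 25 below both controls, beside 30.1% and 35.8%. Its H4 median was -0.09 and its H3 median 0.17.

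Because these 3 arrays share slide row 2, all 3 were also set against the 4 arrays of row 1. In 22 of 63 histone genes the 3 arrays of row 2 were all below the 4 of row 1, beside 14.5% of all genes tested, and in 1, H1-5, they were all above, beside 12.4%. The 22 were 9 of 17 H2B, 8 of 14 H4, 4 of 15 H2A and 1 of 5 H1 genes, and none of the 12 H3 genes. The median difference of row 2 from row 1 was -0.30 for the histone genes, -0.47 for H4, -0.31 for H2A, -0.30 for H2B, -0.05 for H3 and -0.02 for all genes tested. Tested with limma over 38004 probes, a comparison added after the values had been seen, 11 histone genes were lower on row 2 and none higher at an adjusted p under 0.05, beside 4.45% and 2.42% of all probes. The 3 arrays of row 2 carry different shRNAs, so what these p-values set apart is the 3 arrays and not a single condition. The count was 1 without the CNOT6L shRNA array, 3 without that of CNOT7 or PARN, 4 without that of NOC, 7 with the empty vector removed, 12 with CNOT6 removed and 20 with the non-target array removed, so it rests on single arrays.

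H2BC21, an H2B gene of chromosome 1 known to make polyadenylated transcripts, had the largest difference among the 11 genes called. The dim genes H1-1 (-1.12) and H4C7 (-1.08) had larger row differences, but their rows overlapped. H2BC21 had levels of -2.00 and -2.02 on the controls, -1.77 upon PARN and -1.97 upon CNOT6 silencing. On row 2 it was -2.86 upon CNOT6L, -3.00 upon CNOT7 and -2.78 upon NOC silencing, 0.55-fold, 0.50-fold and 0.59-fold the control mean. The 2 sets did not overlap, and the row difference was -0.94 ± 0.12 (SE, limma adjusted p = 0.00537). H2AC8 was -0.33, -0.44, -0.15 and -0.01 on row 1 and -1.06 on each of the 3 arrays of row 2, a difference of -0.83 ± 0.12 (SE, limma adjusted p = 0.00784). Its head-to-head partner H2BC8 differed by -0.23 between the rows. H2BC5, also known to make polyadenylated transcripts, was 0.34, 0.44, 0.53 and 0.53 on row 1. It was -0.23, -0.44 and -0.08 on row 2, with no overlap (limma adjusted p = 0.00977). H4C2 was 2.98, 2.90, 3.14 and 3.66 on row 1 and 2.22, 2.24 and 2.42 on row 2, a difference of -0.87 ± 0.17 (SE, limma adjusted p = 0.02). H4C8 was 0.98, 1.29, 1.17 and 1.42 on row 1 and 0.48, 0.37 and 0.73 on row 2. The other genes called lower were H2BC9, H2BC11, H2BC13, H2BC17, H2BC18 and H2AC17, with differences of -0.37 to -0.54. The genes of this list that no other rule names were chosen after their values were seen.

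For H2BC18, another H2B gene of chromosome 1, the choice of probe mattered. Its brightest probe, designed on RefSeq transcript NM_001161334, differed from the controls by -0.38, -0.52 and -0.34 upon CNOT6L, CNOT7 and NOC silencing. The other 2 probes, designed on NM_001024599, differed by -1.64, -1.66 and -1.62 for one of them, and by -1.54, -1.23 and -1.60 for the other. Levels of the former were -1.54 and -1.50 on the controls, -1.24 upon PARN, -1.66 upon CNOT6, -3.16 upon CNOT6L, -3.18 upon CNOT7 and -3.14 upon NOC silencing. These 2 probes thus lay more than 2-fold below every array of row 1 on all 3 arrays of row 2, while the third did not. The dimmer probe of H2BC21 was likewise at -1.05, -1.19 and -1.28 from the control mean. H2BC12, a further gene known to make polyadenylated transcripts, had probes that disagreed in sign, with row differences of 0.02 for the brighter and -0.35 for the dimmer. For H2AC17 the row difference was -0.47 for the brighter probe, the one called lower, and -0.08 for the dimmer. Upon NOC silencing the brighter probe of H2AC17 differed from the control mean by -0.32 and the dimmer by 0.23. Other transcripts of a gene, or other genes, may lie under each probe, and this was not tested.

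**Figure D4:**
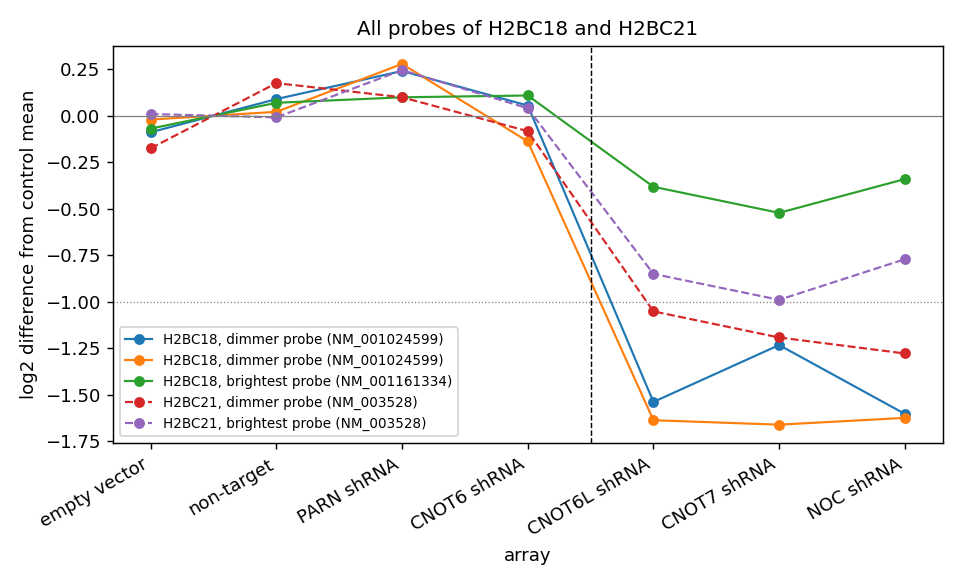
Log2 difference from the control mean of every probe of H2BC18 (solid) and H2BC21 (dashed) on the 7 arrays, with the RefSeq transcript of each probe in the legend, a line joining the values of a probe, and the dotted line at a 2-fold decrease. The 2 dimmer probes of H2BC18 lie between -1.23 and -1.66 on row 2, and its brightest probe between -0.34 and -0.52.

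Within row 2, where the slide row is constant, NOC silencing stood apart. On its array 52 of 63 histone genes were above both the CNOT6L and the CNOT7 shRNA arrays, beside 31.7% of all genes tested, and 5 were below both, beside 35.2%. The median difference from those arrays was 0.17, and 0.28 for H4 genes, of which 13 of 14 were above. The CNOT7 shRNA array was the lowest of the row for 34 of 63 genes (background 36.7%) and the CNOT6L shRNA array for 24 (28.0%), and no histone gene differed 2-fold from both row mates on any of the 3 arrays. Of all genes tested, 0.521% were 2-fold higher and 0.107% lower than both row mates for CNOT6L, 0.146% and 0.0673% for CNOT7, and 0.174% and 0.174% for NOC. By the smaller difference from both controls H3C15 was highest on the NOC shRNA array, with levels of 2.32 and 2.31 on the controls, 2.52 upon PARN, 2.58 upon CNOT6, 2.39 upon CNOT6L, 2.67 upon CNOT7 and 3.13 upon NOC silencing. The SD between its 2 spots was at most 0.12. H4C16 was -4.10 and -4.05 on the controls, -3.97 upon CNOT6L, -4.04 upon CNOT7 and -3.26 upon NOC silencing, 1.76-fold the control mean. H3C11 was -0.89 and -0.91 on the controls and -0.60 upon NOC silencing. The day of image extraction also set this array apart, and its part in these values was not tested.

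Some members went against the rest. H1-5 was 0.36, 0.39, 0.06 and 0.27 on row 1 and 0.54, 0.58 and 0.66 on row 2, opposite to most histone genes. H3C1 was 2.80 and 2.73 on the controls and 3.09, 3.07 and 3.01 on row 2. Of the brightest linker genes, H1-2 was 2.53 and 2.60 on the controls and 2.38, 2.40 and 2.39 on row 2, in the direction of most histone genes, and H1-4 stayed between 1.68 and 1.98 on all 7 arrays. H2BC12 was above both controls upon CNOT6L silencing, at 1.93 against 1.64 and 1.81. H3C6, H3C15 and H4C16 were the only 3 of 63 genes higher on all 5 shRNA arrays than on both controls, beside 2.73% of all genes tested, and none was lower on all 5, beside 4.22%.

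The 5 shRNA arrays were also compared with the 2 controls as a group by limma, with different shRNAs standing in for replicates. No histone gene and no probe at all was called at an adjusted p under 0.05, and 0 of 63 histone genes had an unadjusted p under 0.05, beside 1420 of 38004 probes (3.74%). In simulated data with the same numbers of arrays, 28% of probes changed 2-fold and 66% of those changed 4-fold were called. The simulation drew independent noise for each array and held no slide-row difference, so these shares may not hold for the real arrays. With slide row as a model term, 13 of 63 histone genes had an unadjusted p under 0.05, beside 1394 of 38004 probes (3.67%). Row 2 held no control, so this shRNA term compares only the PARN and CNOT6 shRNA arrays with the 2 controls. It is not a row-adjusted effect of all 5 shRNAs. Again none was called.

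Genes that act on histone mRNA were read beside the members. The 6 members known to make polyadenylated mRNA (H1-2, H2AC6, H2BC4, H2BC5, H2BC12, H2BC21) had medians of 0.15 for PARN, 0.13 for CNOT6, -0.18 for CNOT6L, -0.35 for CNOT7 and -0.09 for NOC, where the other 57 had 0.14, 0.30, -0.21, -0.22 and -0.01. Of 21 measured genes for 3′ end processing, translation and decay of histone mRNA, none was 2-fold higher or lower than both controls on any shRNA array. SLBP had levels of 3.83 and 4.15 on the controls, 3.64 upon PARN, 3.95 upon CNOT6, 4.64 upon CNOT6L, 4.52 upon CNOT7 and 4.57 upon NOC silencing. SLBP was thus higher on every array of row 2 than on every array of row 1, by 0.69 ± 0.12 (SE, limma adjusted p = 0.0135), the direction opposite to most H4 and H2B genes. MIF4GD, a translation partner of SLBP, was also higher on row 2, by 0.49 ± 0.10 (SE, limma adjusted p = 0.0266). The naming rule also picked SRRT (a cap-binding partner, 0.15 above the nearer control upon PARN silencing), CPSF2, a cleavage factor subunit (-0.43 upon CNOT6 and -0.56 upon CNOT7 silencing), LSM1, a decay factor (0.46 upon CNOT6 silencing), and LSM11, of the U7 particle (-0.42 upon CNOT6L and -0.45 upon NOC silencing). The probes of CPSF2 (levels of -5.66 to -5.08) and LSM11 (-4.14 to -3.63) were dim, which limits these values.

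**Figure D5:**
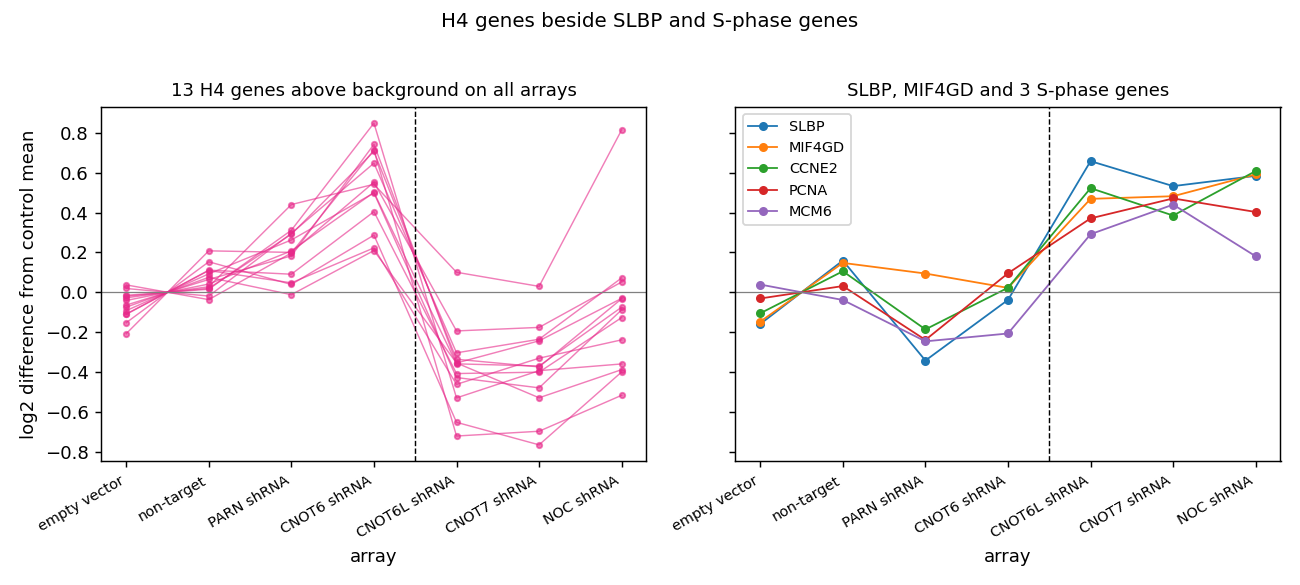
Log2 difference from the control mean on the 7 arrays, left for the 13 H4 genes above background on all arrays and right for SLBP, MIF4GD and the S-phase genes CCNE2, PCNA and MCM6, with lines joining the values of a gene and a dashed line between slide rows. SLBP lies between 0.53 and 0.66 on row 2, where 12 of the 13 H4 genes on the CNOT6L and CNOT7 shRNA arrays lie below 0.

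The S-phase list, of genes for DNA replication and entry into S phase, did not follow the histone genes. Its 20 genes had medians of -0.12 for PARN, -0.06 for CNOT6, 0.00 for CNOT6L, 0.10 for CNOT7 and 0.06 for NOC. Between the rows its median was 0.11, with 6 of 20 genes higher on all arrays of row 2 and none lower, beside 12.4% and 14.5% of all genes tested. CCNE2 (cyclin E2) was 0.55 ± 0.11 higher on row 2 (SE, limma adjusted p = 0.0215), PCNA (the sliding clamp) 0.45 ± 0.10 higher (SE, limma adjusted p = 0.0283) and MCM6 (a helicase subunit) 0.42 ± 0.10 higher (SE, limma adjusted p = 0.0434). CDK2, the partner of cyclin E, was the only gene of the list to pass the 2-fold rule, at -3.80 upon CNOT6 silencing against -2.58 and -2.43 on the controls. With bulk RNA, fewer cells in S phase and less histone RNA per cell cannot be told apart.

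The list of replication-independent histones had medians of 0.02 for PARN, -0.11 for CNOT6, -0.02 for CNOT6L, -0.06 for CNOT7 and -0.03 for NOC over 11 genes. Upon CNOT6 silencing H3-3A and H3-3B, both of which encode histone H3.3, were 0.58 and 0.42 above the control mean, whereas MACROH2A2 was at -0.60. CENPA, the centromeric H3, was lower on row 2 (-0.49 ± 0.10, SE, limma adjusted p = 0.0241). Of 8 measured histone chaperone genes, ASF1B was at -0.65 upon PARN silencing and at 0.53 upon NOC silencing, and none was 2-fold different from both controls.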

How the data were processed

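Total RNA of NCI-H520 cells was labelled with Cy3 and hybridised to 7 arrays, 1 per group, with groups taken from the sample titles. The deposited scanner files were written by Agilent Feature Extraction 10.7.3.1, per the file headers. Per the file headers, the authors' software made the intensity values of 62976 spots from the scanned images (median, local background, and a processed signal derived from them). The deposited series table has log2 values, which set against the scanner files were the processed signals after a constant shift of each array and removal of each probe's median over the 7 arrays, with column medians of -0.02 to 0.09. The same files hold flags per spot, used as the authors' software set them.

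Processed signals were taken to log2, and the 75th percentile over the array's gene spots was subtracted. Control spots and outlier-flagged spots were left out, and spots of a probe were averaged, which left 42405 probes. A probe was above background where at least 50% of its spots were flagged so. Probe accessions were matched to RefSeq (GRCh38.p14, names only), which named 24826 probes. The array headers name another genome build, so no position from the files is printed. To find the CNOT6 probe, the leading zero that its labelled accession lacks was added. Genes were tested where their brightest probe was above background on at least 2 arrays.

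A gene was called where it was at least 2-fold higher or lower than both controls, a dim side taking the lowest level above background on that array where its own value was lower. Counts at any size used the direction against both controls. limma 3.58.1 (R 4.3.3, lmFit and eBayes with trend, two-sided, Benjamini-Hochberg over all probes tested) compared the 5 shRNA with the 2 control arrays and, added later, slide row 2 with row 1, and was tested on simulated data. For the series table the prior variance followed the mean scanner level, since the table is centred per probe. The number of arrays limits the precision. Alternatives were quantile normalization, normexp background correction (offset 50, on the median signal, as no mean signal was used here), the series table, the mean over all probes, no filter on dim probes, outlier spots kept, either control alone, slide row as a term, and leaving out each array.

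The members and lists were chosen with earlier results of these data known. Named members were the brightest 2 of each family, the 3 highest and 3 lowest per shRNA by the smaller difference from both controls, the 3 with the largest control difference in each direction, and those never above background. From each list the highest and lowest per shRNA could be named, and SLBP always. A list gene picked by this rule is not reported here. Figures were drawn with matplotlib 3.10.9.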

Additional observations from a re-analysis of the deposited data

Results flagged for a closer look

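For 3 histone families the shift upon PARN and CNOT6 silencing and that upon CNOT6L, CNOT7 and NOC silencing had opposite signs on every array concerned. For H2A genes upon NOC silencing this sign rests on a median of -0.03, which was 0.00 with the series table and 0.01 with the empty-vector array left out. The mean family median of the first pair of arrays minus that of the other 3 was 0.66 for H4 genes, 0.41 for H2A genes and 0.35 for H2B genes (log2 difference from the control mean). These differences between the arrays were not tested, and the 2 sets of arrays coincide with the 2 slide rows.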

How the results depend on the processing

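No paired analysis was possible because every group has 1 array and all carry replicate number 1. The medians of the histone genes kept their sign under every alternative for PARN (0.11 to 0.16), CNOT6 (0.21 to 0.29), CNOT6L (-0.23 to -0.17) and CNOT7 (-0.25 to -0.18), whereas that of NOC lay near 0 (-0.05 to 0.02). The 2 genes higher on the empty-vector than on the non-target array became 0 with quantile normalization and 0 with normexp. With the mean over all probes of a gene, 1 histone gene was 2-fold lower upon CNOT6L, 2 upon CNOT7 and 1 upon NOC silencing, and without the filter on dim probes 1 upon CNOT7 silencing. With a control array left out, the counts of 2-fold lower genes ran from 0 to 3 for CNOT6L and for CNOT7, 0 to 2 for NOC and 0 to 1 for PARN, the higher count being that without the non-target array. Those of 2-fold higher genes ran from 0 to 1 for PARN and for CNOT6, with 1 each without the empty-vector array. These 2-fold counts have no share of all genes tested beside them, so they are not read as a result about histone genes. Without the non-target array the reference is the empty-vector array alone. On that array 10.9% of all genes tested were 2-fold higher than on the non-target array. The limma count of 0 histone genes for 5 shRNA against 2 control arrays was the same under every alternative run, while over all probes it was 61 with the empty vector removed and 1 with the non-target array removed. The limma counts between slide rows ran from 1 to 20 lower and 0 to 1 higher with an array left out. They gave 0 lower with the series table where the prior variance followed the table's own centred means. Over all probes the lower count ran from 238 to 5609 with an array left out, and was 0 with that setting of the series table. The alternatives for counts at any size were chosen after seeing the data, and no share of all genes is given beside them. Genes above both controls upon CNOT6L silencing were 11 with normexp and 11 with the series table, those below both upon CNOT6 silencing 4 with quantile normalization, and those higher on row 2 without overlap 2 with quantile normalization, 2 with normexp and 3 with the series table. Normexp moved the median of all genes upon CNOT6 silencing to 0.10, against which the histone median of 0.21 is to be read. In that setting the family medians were 0.51 for H4, 0.36 for H2A, 0.30 for H3 and 0.05 for H2B. The H2B median was thus below that of all genes. Members with levels under -4, such as H1-1, H2AC1 and H4C7, are limited by signal over background.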
